A study of Mus musculus with 2 samples.

Results

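The TH2 cytokine locus is the stretch of mouse chromosome 11 that holds *Il4*, *Il13*, *Rad50* and *Il5*, with *Kif3a* and *Irf1* on its flanks. These 6 protein-coding genes, of 21938 in the annotation on the chromosomes used, were taken by name from GENCODE M21 with 20 kb on either side of each gene body. The regions overlapped and merged into an interval from 53547379 to 53745106 and an interval from 53750014 to 53798374 on chromosome 11 (GRCm38), 246089 bp in all. Along the chromosome the genes follow in the order *Kif3a*, *Il4*, *Il13*, *Rad50*, *Il5* and *Irf1*. *Il4*, *Il13* and *Rad50* lie on the minus strand, and the others lie on the plus strand.

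Gata3 binding was measured by ChIPmentation in TH2 cells of splenic origin grown *in vitro*. In this method a transposase adds the sequencing adaptors to immunoprecipitated chromatin on the beads. In the paper's TH2 cultures, splenic naive CD4+ T cells were stimulated through CD3 and CD28 with IL-2. IL-4 and an antibody that neutralises IFN-γ were added to polarise them. The 2 libraries are replicates 1 and 2 of a single condition, made with 5 min of crosslinking and the antibody D13C9. They are called library 1 (40526613 reads) and library 2 (24970952 reads) below. The extraction protocol in the labels speaks of ILC2, whereas the sample fields and the paper's ChIP methods name TH2 cells, the name followed here. Reads from a ChIP library do not measure the marker genes that would check this. The mouse genotype behind these libraries, and whether the replicates came from separate mice or cultures, are not given in the sources used here. Heights were read against the density of the same library, as neither an input nor an IgG control was analysed here.

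Gata3 is the transcription factor that directs naive CD4+ T cells to the TH2 fate, and it recognises short DNA sequences with a GATA core. IL-4, IL-13 and IL-5 are the cytokines of type-2 immunity, in which IL-4 feeds back on TH2 differentiation, IL-13 acts on airway epithelium and IL-5 acts on eosinophils. *Rad50*, which lies between *Il13* and *Il5*, encodes a DNA repair protein. Its 3′ part carries the locus control region, a group of regulatory elements for the cytokine genes. Further regulatory elements have been described in *Il4* intron 2, downstream of *Il4*, and upstream of *Il13*, where a conserved GATA response element is known. *Kif3a* encodes a kinesin motor subunit needed for cilia, and *Irf1* encodes a transcription factor of the interferon response. The limits of the known elements are in none of the files used here, so the sites below were placed by gene, exon and intron only.

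After a 3′ shift of 100 bp, reads were counted in 200-bp windows and scaled to RPM, the reads in a library of 1000000 reads. A peak is a run of windows above the local read density of its library at a Benjamini-Hochberg q of 0.01 (exact Poisson test, one-sided), and a shared peak overlaps between the libraries. Its summit is the centre of its tallest window, given from library 1 unless stated, and the reads of each library are those of its own tallest window. The locus held 14 shared peaks, which are called sites 1 to 14 in order along the chromosome. The 3 tallest in both libraries were site 4, 1599 bp before the *Il13* start site, site 6 in *Rad50* intron 22, and site 3 in *Il4* intron 2. Of the 14 summits, 5 lay in introns, 2 in exons and 6 between genes, and site 2 lay in the annotated *Il4* gene body past its coding transcripts.

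The plus-strand sequences within 100 bp of 5 summits are shown because they are the 4 tallest sites by the lower RPM of the 2 libraries and the site with the highest fold in library 1. Capitals mark the GATA sequence, which is AGATAA with A or T as its opening base and A or G as its last, on either strand. The GRCm38.p6 intervals on chromosome 11 are chr11:53636201-53636401 for site 4, chr11:53655301-53655501 for site 6, chr11:53617451-53617651 for site 3, chr11:53713701-53713901 for site 10 and chr11:53732401-53732601 for site 13.
site 4: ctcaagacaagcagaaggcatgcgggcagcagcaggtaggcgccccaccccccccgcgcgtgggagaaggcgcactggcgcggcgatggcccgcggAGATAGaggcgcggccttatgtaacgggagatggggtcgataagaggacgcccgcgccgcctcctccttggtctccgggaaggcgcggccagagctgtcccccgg
site 6: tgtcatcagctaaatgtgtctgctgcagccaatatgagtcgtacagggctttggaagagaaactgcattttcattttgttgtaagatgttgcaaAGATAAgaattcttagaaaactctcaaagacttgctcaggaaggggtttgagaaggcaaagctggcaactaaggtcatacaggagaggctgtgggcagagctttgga
site 3: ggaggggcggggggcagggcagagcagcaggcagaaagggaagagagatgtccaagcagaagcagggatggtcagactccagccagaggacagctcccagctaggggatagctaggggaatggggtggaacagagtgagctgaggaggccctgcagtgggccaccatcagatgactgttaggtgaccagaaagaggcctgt
site 10: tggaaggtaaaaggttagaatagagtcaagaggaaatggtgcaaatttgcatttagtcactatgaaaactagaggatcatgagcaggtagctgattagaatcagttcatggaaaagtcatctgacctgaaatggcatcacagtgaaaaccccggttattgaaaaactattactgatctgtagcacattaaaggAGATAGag
site 13: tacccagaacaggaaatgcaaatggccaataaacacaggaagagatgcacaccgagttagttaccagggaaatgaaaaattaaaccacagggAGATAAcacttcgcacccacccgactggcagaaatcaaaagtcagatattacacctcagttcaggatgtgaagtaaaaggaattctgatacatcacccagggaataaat
Sites 4, 6 and 13 each had a GATA sequence almost at the library 1 summit, site 10 had it at the edge of the window, and site 3 had none within 100 bp. Summits were placed in steps of 50 bp, so distances below that are not resolved, here and below. The library 2 summit of site 6 lay 50 bp from that of library 1.

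The tallest window of site 4 had 220 reads in library 1 and 138 in library 2, with the summit at 53636301 in both libraries. Scaled for depth this was 5.43 RPM (95% counting interval 4.74 to 6.20) and 5.53 RPM (4.65 to 6.53), so the intervals of the libraries overlapped. The window stood 4.14-fold and 4.15-fold over its local background, with exact Poisson p-values of 1.56e-65 and 6.79e-42. Ranked by the lower of both RPM values, it was number 8 of the 23807 shared peaks of the genome. By the lower of both folds it was only at percentile 43.5 of the shared peaks. Its GATA sequence, AGATAG from 53636297 to 53636302, had its centre 1.5 bp from the summit. The 201 bp around the summit had 70.6% G and C and 23 CpG dinucleotides, the highest G and C share of the 14 sites, which started at 37.8%, with a median of 47.8% against 43.8% over all shared summits. Whether base composition had a part in its height was not tested. No 2 reads of a library shared their 5′ end and strand, so a 200-bp window could hold at most 400 reads. The effect of this cap on the tallest sites was not tested either.

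Around site 4 the reads formed a broad domain rather than a single summit. Windows at or above 3-fold over the library mean in both libraries ran without a break for 4200 bp, from 53633201 to 53637400, over the 5′ part of *Il13* and the sequence before it. The mean over this run was 21.8-fold in each library, and it was the longest such run in the locus. The window at the *Il13* start site itself held 93 reads in library 1 (2.3 RPM) and 56 in library 2 (2.24 RPM), above the median height of the 14 sites (1.52 RPM). A window in *Il13* intron 1, 651 bp after the start, held 92 and 49 reads. Neither was a shared peak: library 1 called a peak at each, whereas library 2 did not. Against a local background that includes the reads of site 4, they stood at 1.69-fold and 1.64-fold for the start, and 1.74-fold and 1.53-fold for the intron. The 3-fold run holds this signal over *Il13*, which the list of sites leaves out.

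*Il13* and *Il5* are shown beside each other because both have a GATA sequence just before the start but differ in reads there. The sequences are the 150 bp before each start on the gene's own strand, from chr11:53634703-53634852 (minus strand) and chr11:53720644-53720793 (plus strand).
Il13 upstream: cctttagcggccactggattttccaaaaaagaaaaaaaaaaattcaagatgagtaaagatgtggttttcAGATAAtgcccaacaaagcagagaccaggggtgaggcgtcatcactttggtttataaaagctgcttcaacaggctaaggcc
Il5 upstream: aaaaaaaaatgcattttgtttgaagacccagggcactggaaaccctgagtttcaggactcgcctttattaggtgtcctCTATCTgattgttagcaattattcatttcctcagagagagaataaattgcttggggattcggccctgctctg
The 200-bp window at the *Il5* start held 5 reads in each library (0.123 and 0.200 RPM), compared with the 93 and 56 reads at *Il13*. The corresponding windows held 22 and 10 reads at *Il4*, 9 and 7 at *Kif3a*, 10 and 12 at *Rad50*, and 9 and 12 at *Irf1*. A GATA sequence was in the 250 bp before the start of *Il13*, *Rad50* and *Il5*, and in none of the other 3 members. Over all 21938 genes, 24.9% held it there.

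**Figure D1:**
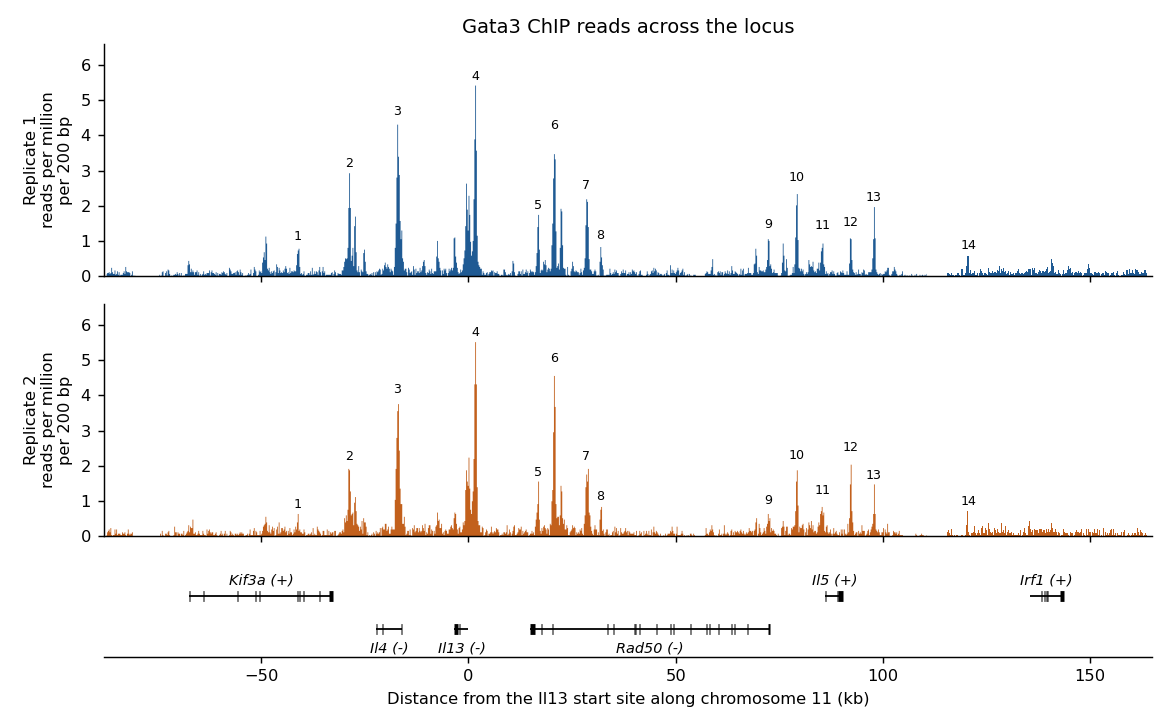
RPM in 200-bp windows (y axis) along chromosome 11, as distance from the Il13 start site in kb (x axis), for replicate 1 (top) and replicate 2 (middle), with the member genes below (thick bars are exons, the sign is the strand) and sites 1 to 14 numbered. The tallest signal in both libraries is site 4, at 5.43 and 5.53 RPM, and no shared peak lies between sites 8 and 9, in the 5′ part of Rad50.

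Site 3 lay in *Il4* intron 2, 1118 bp after the start site, with its summit at 53617551. It held 179 reads in library 1 (4.42 RPM, 3.80 to 5.12) and 98 in library 2 (3.93 RPM, 3.19 to 4.79), 4.77-fold and 4.41-fold over the local background. It was number 235 of all shared peaks, and its peak spanned 1150 bp, the longest of the 14. Windows at or above 3-fold ran for 2200 bp here. The nearest GATA sequence lay 136 bp from the summit, and the whole peak held 3 of them.

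Site 2 lay 6559 bp past the 3′ end of the coding *Il4* transcripts, inside the span of a longer noncoding *Il4* transcript. Its window held 119 reads in library 1 (2.94 RPM) and 50 in library 2 (2.0 RPM), 4.29-fold and 3.40-fold over the local background. Library 1 was the higher: over the whole peak library 2 differed by -0.44 on the log2 scale (exact binomial test, q = 0.0246 over all shared peaks), a call that was lost with counts scaled to reads inside shared peaks (q = 0.188). A 3000-bp run at or above 3-fold surrounded it. Between *Il4* and *Il13* no site was shared, although the density there was 3.09-fold and 2.96-fold over the library mean. Per stretch, the coding *Il4* transcripts had the highest density of the locus, 10.6-fold in library 1 (9.99 to 11.3) and 10.1-fold in library 2 (9.28 to 11), next to 10.0-fold (9.16 to 10.9) and 8.82-fold (7.81 to 9.93) for *Il13*.

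In *Rad50* 5 sites were shared, of which 4 lay in the last 25 kb, the 3′ part that carries the locus control region. Site 6 in intron 22 was the tallest of them, with 163 reads in library 1 (4.02 RPM, 3.43 to 4.69) and 120 in library 2 (4.81 RPM, 3.99 to 5.75). It stood 4.45-fold and 5.22-fold over the local background, with exact Poisson p-values of 6.6e-53 and 4.84e-46, and was number 206 of all shared peaks. Its AGATAA, from 53655395 to 53655400, had its centre 3.5 bp from the summit, and the sequence TTCTTAGAA of the STAT type (TTCNNNGAA) lay 7 bp to the other side. The whole peak held 5 GATA sequences, the most of the 14 sites.

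Site 7 in intron 21 followed, with 94 reads in library 1 (2.32 RPM) and 50 in library 2 (2.0 RPM). Its summits lay 300 bp apart between the libraries, the widest distance of the 14 sites, so that its position is less certain than that of the others. Site 5 in intron 24, the site nearest the 3′ end of the gene, held 71 reads (1.75 RPM) and 39 reads (1.56 RPM). Site 8, also in intron 21, held 37 reads (0.913 RPM) and 22 reads (0.881 RPM) and had the lowest fold of the 4, 3.15 and 2.78. Between sites 6 and 7 a further window of intron 21, at 53657001, held 75 and 43 reads and was a peak in library 1 only.

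The 3′ and 5′ parts of *Rad50* differed in read density. The last 25 kb had 1954 reads in library 1 and 1243 in library 2, 5.26-fold (5.03 to 5.50) and 5.43-fold (5.13 to 5.74) over the library mean. The rest of the gene, 32.8 kb, held 811 and 412 reads, 1.66-fold (1.55 to 1.78) and 1.37-fold (1.24 to 1.51). The last 25 kb was therefore 3.17 and 3.96 times as dense, with counting intervals that did not overlap in either library. No shared site lay between site 8 and site 9, a gap of 40.5 kb that is the widest in the locus. Library 1 alone called 2 peaks there, in intron 7 (20 reads, 4.72-fold over the local background) and in intron 2 (35 reads, 4.14-fold), where library 2 held 5 and 12 reads. Around the latter, 400 bp stood 9.42-fold and 6.28-fold over the library mean. The intervals cover counting error only, here and throughout.

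Site 9 lay in the coding part of *Rad50* exon 1, 318 bp after the start, with 49 reads in library 1 (1.21 RPM) and 19 in library 2 (0.761 RPM). It held an AGATAA and a TTATCT, the latter being AGATAA on the other strand, within 20 bp before the summit.

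**Figure D2:**
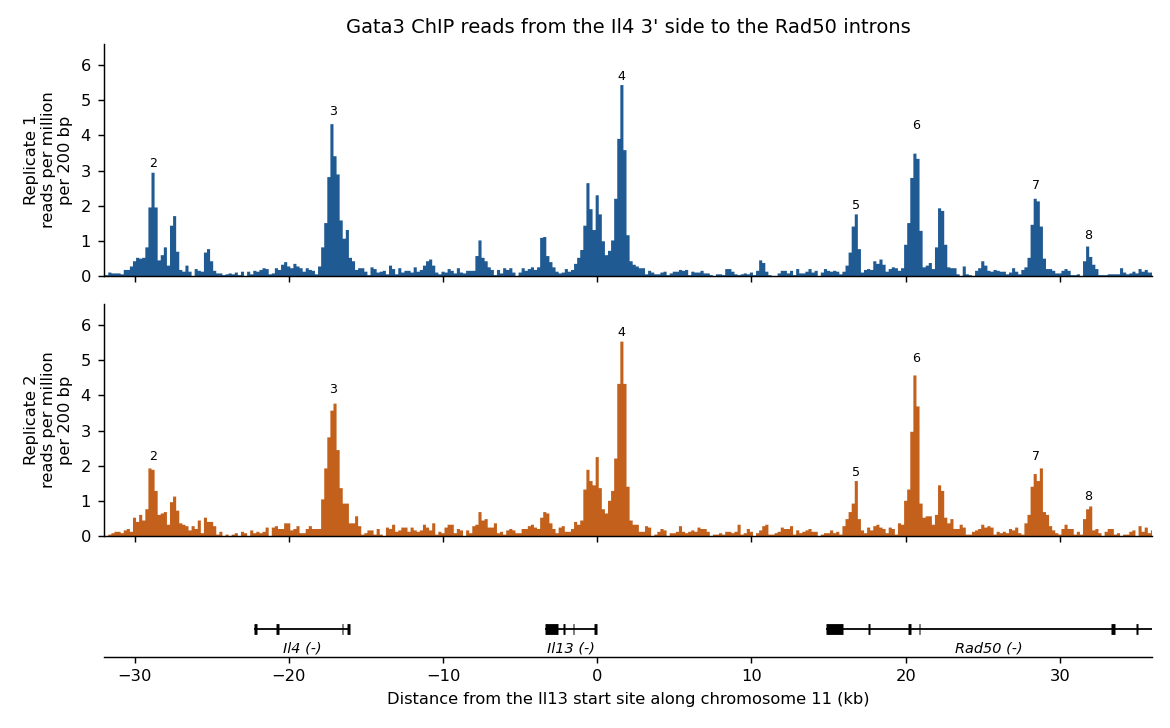
The same RPM values in 200-bp windows (y axis) from the 3′ side of Il4 to the Rad50 introns, as distance from the Il13 start site in kb (x axis), for replicate 1 (top) and replicate 2 (middle) with exons as thick bars below. The signal over the start of Il13, 93 and 56 reads, is a separate maximum beside site 4, with lower windows between them in both libraries. Sites 5 to 8 stand apart from each other in the 3′ part of Rad50.

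The sites on both sides of *Il5* were lower than sites 4, 6 and 3. Site 10 lay between *Rad50* and *Il5*, 6482 bp before the *Rad50* start, with 103 reads in library 1 (2.54 RPM, 2.08 to 3.08) and 51 in library 2 (2.04 RPM, 1.52 to 2.69), 6.67-fold and 5.52-fold over the local background. Its summit carried a STAT-type TTCATGGAA 8 bp away and its GATA sequence 96 bp away. Site 11 lay 793 bp before the *Il5* start, with 48 reads (1.19 RPM) and 26 reads (1.04 RPM). Site 11 and the shared peaks at *Il4*, *Il13* and *Rad50* placed a summit within 2 kb of the start in 4 of the 6 members.

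Downstream of *Il5*, sites 12 and 13 had more reads than the median shared peak and high folds over their surroundings. Site 13, 11707 bp after the *Il5* start, held 80 reads in library 1 (1.98 RPM) and 37 in library 2 (1.48 RPM), 7.46-fold and 6.42-fold over the local background, with an AGATAA centred 5.5 bp from its summit. Site 12, 5957 bp after the start, held 51 reads in library 1 (1.26 RPM, 0.937 to 1.66) and 57 in library 2 (2.28 RPM, 1.73 to 2.96), 6.34-fold and 7.66-fold. Sites 10, 12 and 13 were the 3 that remained when a peak had to reach 5-fold, a rule that removed site 4 and every site in *Il4* and *Rad50*. The order by fold over the local background thus differed from the order by height. Across the genome the 5-fold rule gave 6365 shared peaks, against 23807 without it. In library 1 the local background was 53.1, 37.6 and 36.6 reads per window at sites 4, 3 and 6, and 15.4, 8.04 and 10.7 at sites 10, 12 and 13.

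The gene-body density of *Il5* was 1.34-fold in library 1 (1.07 to 1.66) and 1.70-fold in library 2 (1.31 to 2.15), with no site inside. This was below the density over the bodies of *Il4* and *Il13*, and the counting intervals did not overlap.

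On the flanks, a low site lay in the body of *Kif3a* and another before *Irf1*. In *Kif3a*, site 1 lay in the coding exon 11, with 35 reads in library 1 (0.864 RPM) and 16 in library 2 (0.641 RPM), and carried AGATAA, an AP-1 sequence (TGACTCA) and a RUNX sequence (TGTGGT) within 100 bp. Site 14 lay 14763 bp before *Irf1*, with 25 reads (0.617 RPM) and 18 reads (0.721 RPM), the lowest of the 14 by the lower library, and carried a TGACTCA but no GATA sequence within 100 bp. Within the gene body *Irf1* had no shared site. The 20 kb before *Kif3a* had 0.871-fold and 0.781-fold the library mean density. A stretch of 6190 bp there, from 53553986 to 53560175, was scored as empty in both libraries. After the 3′ shift, however, library 1 had 1 read in a window inside it, so these stretches are not all empty at the shifted positions. In all, 13 stretches of at least 500 bp scored as empty covered 6.07% of the locus. Reads without a unique position had been removed from the files, and the part of this in the empty stretches was not tested.

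**Figure D3:**
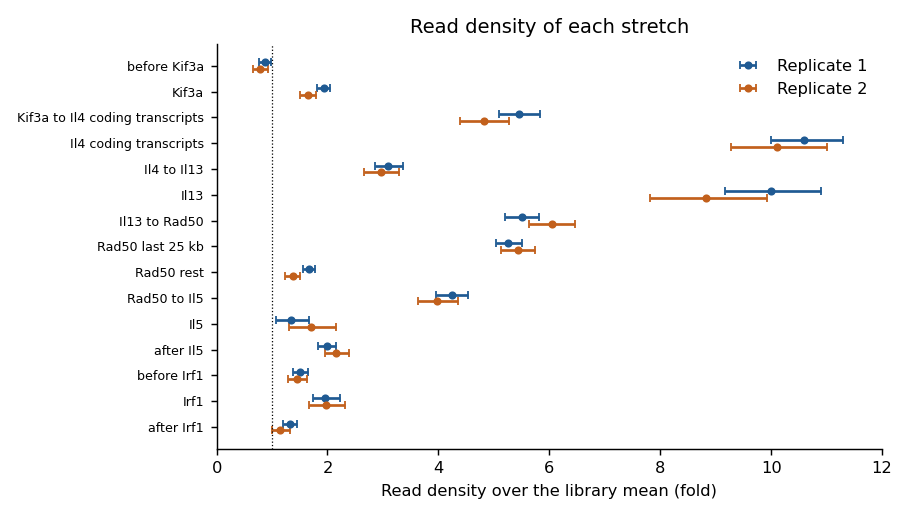
Read density over the library mean (x axis, fold) for each stretch of the locus in order along the chromosome (y axis), with 95% counting intervals for replicate 1 (blue) and replicate 2 (orange) and a dotted line at the library mean. The coding Il4 transcripts and Il13 lie at 8.82-fold to 10.6-fold, and the rest of Rad50 lies at 1.66-fold and 1.37-fold.

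Most neighbours in the order of heights could not be told apart. By the lower RPM of the 2 libraries, the order from the tallest was site 4, 6, 3, 10, 2, 7, 5, 13, 12, 11, 8, 9, 1 and 14. Sites 4, 6 and 3 were the 3 tallest in each library, but neither library had this whole order: site 10 was number 5 in both, after site 2 in library 1 and after site 12 in library 2. Each of the 13 neighbouring pairs was compared in both libraries with an exact binomial test of their reads (26 tests, adjusted together). Only sites 3 and 10 differed in both libraries, with 179 against 103 reads (q = 0.000184) and 98 against 51 reads (q = 0.0019). Site 4 exceeded site 6 in library 1 (q = 0.027) but not past the threshold in library 2 (q = 0.502), site 12 exceeded site 11 in library 2 only (q = 0.00761), and 10 pairs passed in neither. The pairs were picked by the same reads that were then compared, so these tests do not set a boundary below sites 4, 6 and 3. In library 1 the closest pair across it, site 6 (163 reads) and site 2 (119 reads), was not compared. The exact order of the sites is not set by these counts. Of the 14 sites, 11 were above the median height of all shared peaks. By the lower of both folds over the local background, however, the median of the sites was 4.26, against 4.3 for all shared peaks.

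**Figure D4:**
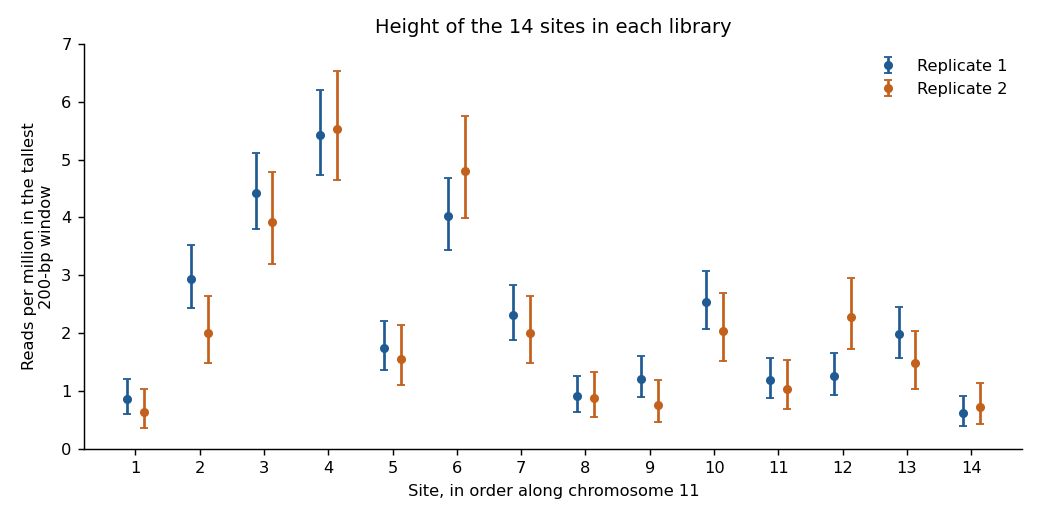
RPM in the tallest 200-bp window of each site (y axis) for sites 1 to 14 in order along the chromosome (x axis), for replicate 1 (blue) and replicate 2 (orange), with 95% exact Poisson counting intervals. Sites 3, 4 and 6 reach at least 3.93 RPM in both libraries, and site 12 is the one whose library 2 interval lies above that of library 1.

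Across the 14 sites the libraries gave similar positions. The summits fell on the same window at 4 sites and within 50 bp at 10. Of all shared peaks 15.7% differed in reads between the libraries (exact binomial test, q of 0.05), and of the 14 sites 5 did. Sites 1, 2, 9 and 13 were higher in library 1 and site 12 was higher in library 2, by 0.72 on the log2 scale (q = 0.00412). With counts scaled to reads inside shared peaks instead, 2 of the 14 sites differed, sites 4 and 12, compared with 12% of all shared peaks. The calls at sites 1, 2, 9 and 13 were lost under this scaling (q = 0.149, 0.188, 0.0586 and 0.151). The read names carry different instruments in the 2 libraries, so a difference between replicates cannot be told apart from a difference between sequencing runs.

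Library 1 called 28 peaks in the locus, and the 14 shared were all those of library 2. Across the genome library 1 called 71726 peaks and library 2 called 28204, and 23807 were shared. The 14 peaks of library 1 alone held 14 to 107 reads at the summit, with a median of 40. Thinned to the depth of library 2, library 1 called 26 peaks, of which 13 were shared. Of the 200-bp windows with a read, 5.33% were called in the locus in library 1 and 2.79% in library 2, compared with 0.963% and 0.391% across the genome. The locus therefore held several times the genome's share of called windows, in windows that overlap and are not independent.

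GATA sequences lay within 100 bp of 9 of the 14 summits, or 64.3% (exact 95% interval 35.1 to 87.2), compared with 71% of all shared summits and with 27.8% of 201-bp windows in the locus outside the shared peaks. Within 50 bp it was 4 of 14 (sites 4, 6, 9 and 13), or 28.6%, below the 46.7% of all shared summits, with 14.7% of the locus windows outside the shared peaks. The exact 95% interval of the 28.6% ran from 8.39 to 58.1 and held the 46.7%. Sites 2, 3, 5, 7 and 14 had none within 100 bp, and among these are 4 of the 7 tallest by the lower RPM. Over the whole length of the library 1 peak, a window chosen after these values were seen, all 14 held at least 1, as did 89.6% of all shared peaks. AP-1 sequences (TGACTCA or TGAGTCA) were found at 2 sites, STAT-type sequences with the shorter gap (TTCNNNGAA) at sites 6 and 10 and with a gap of 4 bases at site 5, and RUNX sequences (TGTGGT) at sites 1, 12 and 13. Over all shared summits 12.3% held the AP-1 sequence within 100 bp, 7.56% and 5.96% the STAT-type sequences with the shorter and longer gap, and 17.2% the RUNX sequence. In windows 1 kb to either side of these summits the shares were 3.55%, 6.34%, 5.59% and 14.7% in the same order. The STAT-type and RUNX shares were thus close to those of their surroundings. A match is a description of the letters and does not show that a factor was bound.

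Counted by gene with 20 kb on either side, *Rad50* held 9 shared summits, *Il5* 5, *Il4* 4, *Kif3a* 3, *Il13* 3 and *Irf1* 1. Neighbouring regions overlap, so a summit can be counted for several genes, and site 4 was counted for *Il4*, *Il13* and *Rad50*. All 6 members had at least 1, where 54.8% of all genes do, and 4 of 6 had a summit within 2 kb of the start, where 11.7% of all genes do. Per 10 kb, *Il5* reached 1.13 shared summits, *Rad50* 0.920, *Il4* 0.718, *Il13* 0.692, *Kif3a* 0.402 and *Irf1* 0.207, against a median of 0.0954 for all genes.

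In read density the cytokine genes stood near the top of all genes. The *Il13* region was 5.71-fold and 5.61-fold over the library mean, and 5 genes, *Il13* included, reached at least its lower value. *Il4* followed at 5.56-fold and 5.20-fold (7 genes), then *Rad50* at 3.91-fold and 3.93-fold (20 genes), *Il5* at 2.82-fold and 2.74-fold (157 genes), *Kif3a* at 2.89-fold and 2.61-fold (214 genes), and *Irf1* at 1.51-fold and 1.42-fold (8052 genes), where the median of all genes was 1.36 and 1.33. Overlapping regions share reads here too, and those of *Il4* and *Il13* each take in the coding transcripts of the other gene. The *Kif3a* region takes in the coding *Il4* transcripts, and the *Kif3a* gene body alone was 1.93-fold and 1.65-fold. The gene whose density was nearest to that of *Il13* was *Cish*, a suppressor of cytokine signalling, at 5.69-fold and 5.75-fold. It was followed by *Eif4enif1* at 5.48-fold and 5.21-fold.

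**Figure D5:**
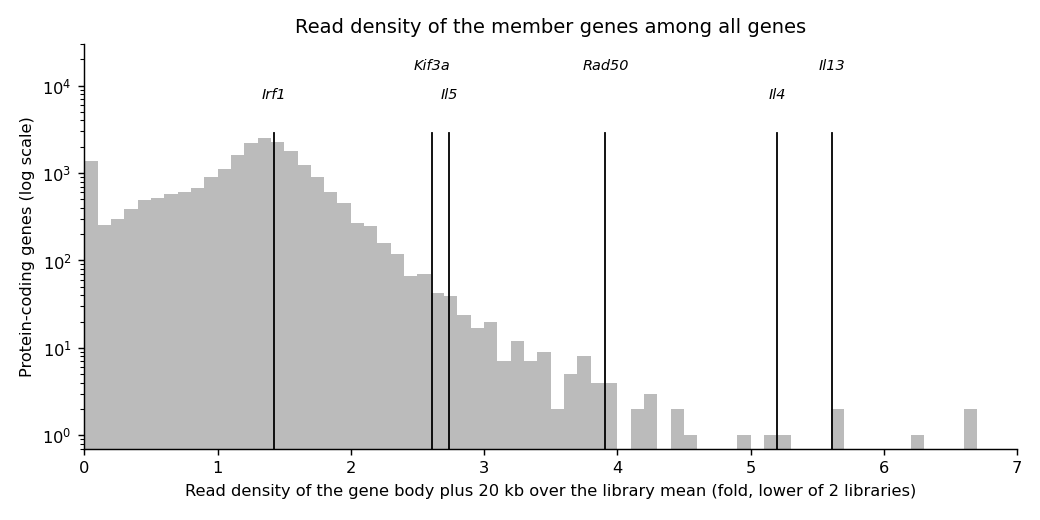
Number of protein-coding genes (y axis, log scale) by the read density of the gene body plus 20 kb over the library mean, taking the lower of 2 libraries (x axis, fold), with lines at the 6 member genes. Il13 and Il4 lie in the far upper tail, at 5.61-fold and 5.20-fold, and Irf1 lies near the peak of the distribution at 1.42-fold.

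Among 15 genes of the TH2 programme outside the locus, such as *Gata3*, *Il4ra* and *Rbpj*, 13 had a shared summit in the region (86.7%, against 54.8% of all genes) and 4 had one within 2 kb of the start (26.7%, against 11.7%). Their median density was 2.70-fold and 2.75-fold, against 3.40-fold and 3.34-fold for the 6 members, several of whose regions share reads. *Irf4*, which encodes a transcription factor needed by TH2 cells, had the highest library 1 density of the 15, at 4.44-fold and 3.98-fold, with 6 shared summits. *Maf* (1.61-fold and 1.70-fold) and *Junb* (1.72-fold and 1.76-fold) had no shared summit. Among 8 genes of the TH1 programme, all had a shared summit in the region and 1 had one within 2 kb of the start (12.5%, near the share of all genes), and their median density was 1.60-fold and 1.76-fold. The densest of the 8 was *Tbx21*, with 4 shared summits and 2.39-fold and 2.32-fold density. Of the 19 other genes that start within 500 kb of *Il13*, 16 had a shared summit in the region (84.2%), 4 had one within 2 kb of the start (21.1%), and their median density was 1.61-fold and 1.41-fold, although some of these regions overlap the locus.

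The locus as a whole was 2.94-fold in library 1 and 2.83-fold in library 2 over the library mean. Of its reads, 33.3% and 32.7% fell inside the shared peaks, which covered 10.6 kb. Windows of at least 10-fold in both libraries made up 4.06% of the locus and 0.202% of the genome. Of 54415 overlapping windows of the same total length placed every 50 kb along the genome, 228 (0.419%) held at least 14 shared summits, and the median was 1.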

How the data were processed

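Per the labels and the paper's methods, the authors sequenced single reads of 2 Gata3 ChIPmentation libraries, aligned them to GRCm38 with Bowtie2 (2.3.5.1) and removed reads without a unique position. MACS2 (2.1.2) is named in the submitters' processing notes with no stated role, and no peak list was used here. They deposited 1 line per read with its start, end, strand and a score, the mapping quality (22 to 44), which was not used. Depth was 40526613 and 24970952 reads. No 2 reads of a library shared their 5′ end and strand, which caps a 200-bp window at 400 reads. The tool that removed duplicates is not given in the sources used here.

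Windows started every 50 bp and were tested against the highest of the library, 5-kb and 10-kb means, which include the window's own reads. A called window also had to reach a minimum of reads and a minimum fold over this background. Called windows within 100 bp were joined. Folds in stretches and genes are over the library mean instead. Counting intervals are 95% exact Poisson intervals, and shares have exact Clopper-Pearson intervals. Genes and transcripts came from GENCODE M21 and sequences from the GRCm38.p6 assembly of RefSeq, the build of the files. The peak calling and the test between libraries were tested on simulated data. The 6 genes, the gene lists and the tests were chosen with earlier results of these data known. The genes named are the members, the fixed lists and the genes nearest to *Il13* in density. Alternatives were a stricter q, a fold limit, other windows, shifts, backgrounds, flanks, motif windows and scalings, thinning, and each library alone. Python 3.11.15, NumPy 2.4.6, SciPy 1.17.1, pysam 0.24.0 and Matplotlib 3.10.9 were used.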

Additional observations from a re-analysis of the deposited data

How the results depend on the processing

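The locus count of 14 shared peaks fell to 7 at a q of 1e-10 and 3 at 5-fold, and was 14 to 28 with either library alone. Over the whole genome the count of 23807 fell to 5154 at a q of 1e-10 and 6365 at 5-fold. It was 28204 with library 2 alone and 71726 with library 1 alone. At a q of 1e-10 the counts were 2 in the last 25 kb of *Rad50*, 1 for *Kif3a*, 2 for *Il4*, 5 for *Rad50*, 3 for *Il5* and 0 for *Irf1*, with 19.6% of genes having a shared peak in the region and 2.77% at the start. At 5-fold they were 0 in the last 25 kb of *Rad50*, 0 for *Kif3a*, *Il4*, *Il13* and *Irf1*, 2 for *Rad50* and 3 for *Il5*, with 24.4% and 2.67% of genes. Windows of 400 bp gave 5 for *Kif3a* and 7 for *Il4*, a background without the central 1 kb gave 5 for *Kif3a*, 8 for *Il4* and 5 for *Il13*, and summits within 100 bp left 0 for *Irf1*. With either library alone the counts were 3 to 6 for *Kif3a*, 4 to 10 for *Il4*, 3 to 8 for *Il13*, 9 to 17 for *Rad50* and 1 to 3 for *Irf1*, while 81.2% of genes had a library 1 peak in the region and 28% at the start. Without flanks they were 1, 2, 0, 5, 0 and 0 for *Kif3a*, *Il4*, *Il13*, *Rad50*, *Il5* and *Irf1*, and with 50 kb they were 5 for *Kif3a*, 8 for *Il4*, 8 for *Il13* and 3 for *Irf1*. The locus density of 2.88-fold (mean of both libraries) was 2.02-fold outside shared peaks and 2.14-fold over the median gene region. The share with a GATA sequence was 28.6% within 50 bp (46.7% of all shared summits) and 100% over the whole peak. The tallest site reached 10.0 RPM in 400-bp and 2.79 RPM in 100-bp windows, as wider windows hold more reads, and site 4 stayed the tallest except at 5-fold. Sites differing between libraries numbered 2 of 14 with the peak-read scaling, against 12% of all shared peaks. Sites 10, 12 and 13 were called under all 10 alternatives. No paired analysis was possible because both libraries belong to a single group. After thinning library 1 to the depth of library 2, 13 of the 14 sites were called, and site 8 was lost. A place without a site is not shown to lack Gata3.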
